A study of Drosophila melanogaster with 7 samples.

Results

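The genes described here are those of fly phototransduction and of the eye: a list of 35 visual genes, of which 28 had an intact line in the deposited table, out of 14476 intact gene lines in all. They were found by symbol, with no threshold on a measured value. The other 7 (Rh2, Rh5, ninaA, ninaC, Ggamma30A, eys and Calx) are not analysed here. Textbook knowledge divides the 28 into 18 photoreceptor-and-eye members, whose known role is in the eye, and 10 widely used members (Galphaq, norpA, rdgA, rdgB, CdsA, inaE, ninaB, ninaD, ninaG and santa-maria), which also act in other tissues.

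In Drosophila photoreceptors, a photon turns rhodopsin into its active form, which acts through a Gq protein on the phospholipase C norpA. The lipid products open the cation channels trp and trpl, and arrestins and a rhodopsin phosphatase end the signal. Photoreceptor cell bodies and the lens lie in the retina, outside the brain proper, while photoreceptor axons run into the optic lobe. A small extraretinal organ, the eyelet, also holds photoreceptors and uses the opsin Rh6.

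Polyadenylated 3' ends were sequenced from total RNA of dissected Drosophila melanogaster brains, in 5 libraries of control flies (Actin-GAL4 UAS-sh8MM, a hairpin with mismatches) and 2 of knockdown flies (Actin-GAL4 UAS-sh-circMbl, a hairpin against the circular RNA of muscleblind). Every library title names day 3, and the Actin-GAL4 driver, active in most cells, is shared by both groups. Sex, pooling of animals and time of day were not stated in the labels. Each title also holds a number after the day, which the labels do not explain, and a lane code. Number 3 belongs to control replicates 2 (lane code L5) and 4 (L7) and knockdown replicate 2 (L2). Number 2 belongs to control replicates 3 (L5) and 5 (L7) and knockdown replicate 1 (L2), and number 1 to control replicate 1 (L7) alone. Lane code L2 and a date code of their own mark both knockdown libraries, so lane, date and genotype cannot be told apart. No label says that libraries came from separate animals, or that same-numbered controls did not share RNA. The p-values therefore cover library-to-library spread only, and part of it may be technical.

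The libraries held between 3260649 and 5546121 reads in the intact lines. The neuronal markers elav, nSyb, brp, Syt1 and Syx1A were present in every library, with sums from 23115 to 33766 normalized counts, as the brain label asks. The linear transcripts of mbl, from which the circle is made, ranged from 3323 to 4122 in control libraries and were at 2770 and 2304 with knockdown, a log2 difference of -0.49 ± 0.14 (SE) that did not pass (limma adjusted p = 0.0694). These 3' reads do not measure the circle itself.

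The photoreceptor-and-eye members were measured in every brain library, and their summed level followed the title number. Of the 17 tested one by one, 6 did not pass for number 3 against 2. Among these, rdgC and gl had title log2 differences of -0.01 and 0.08. The 18 photoreceptor-and-eye members together held 9766, 10422 and 9765 normalized counts in the number 3 libraries (control replicate 2, control replicate 4 and knockdown replicate 2). In the number 2 libraries (control replicate 3, control replicate 5 and knockdown replicate 1) the same sum was 4180, 3982 and 3668, and in control replicate 1 it was 3249. No number 3 library overlapped any other library, and the knockdown libraries stood with the controls of their own number. As a share of all normalized counts, the 18 members took 0.242% to 0.273% with number 3 and 0.0753% to 0.109% in the other 4 libraries. Of the 18, Arr1, retinin, ninaE and Arr2 had the highest means over the 7 libraries (1967, 1175, 1132 and 1006). The rest had means of at most 195, so the sum and share mostly follow Arr1, retinin, ninaE and Arr2. The 10 widely used members summed to between 8790 and 10583, with the number 3 libraries at 8790, 10583 and 9851, on both sides of the other 4. In bulk RNA, fewer cells of a type and less RNA per cell cannot be told apart.

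**Figure D1:**
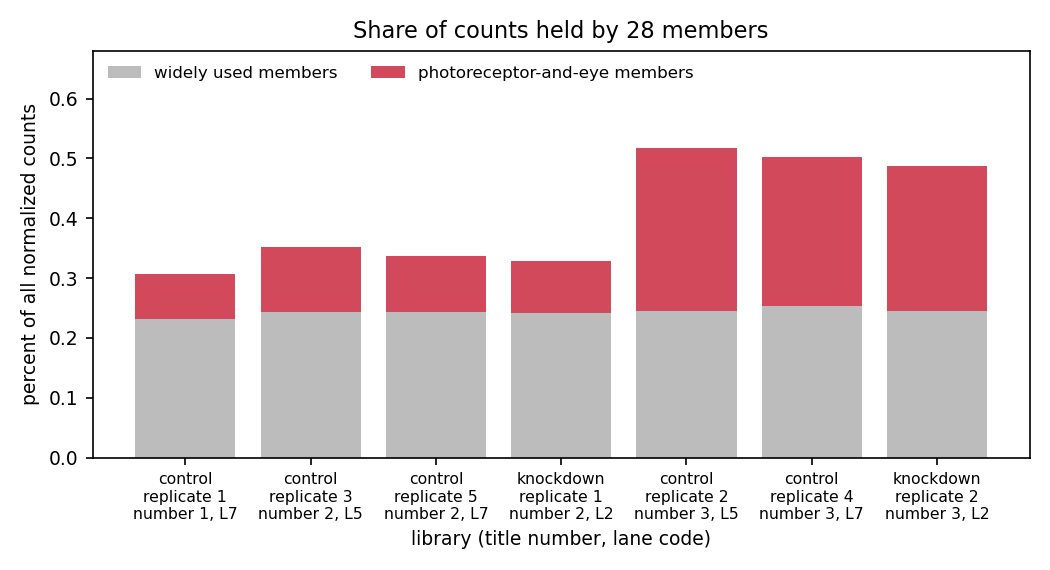
Bars give the percent of all normalized counts held by the 28 members in each of the 7 libraries, ordered by title number, with the 18 photoreceptor-and-eye members stacked on the 10 widely used members. The photoreceptor-and-eye part is 0.242% to 0.273% in the 3 libraries of number 3 and at most 0.109% in the other 4.

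**Figure D2:**
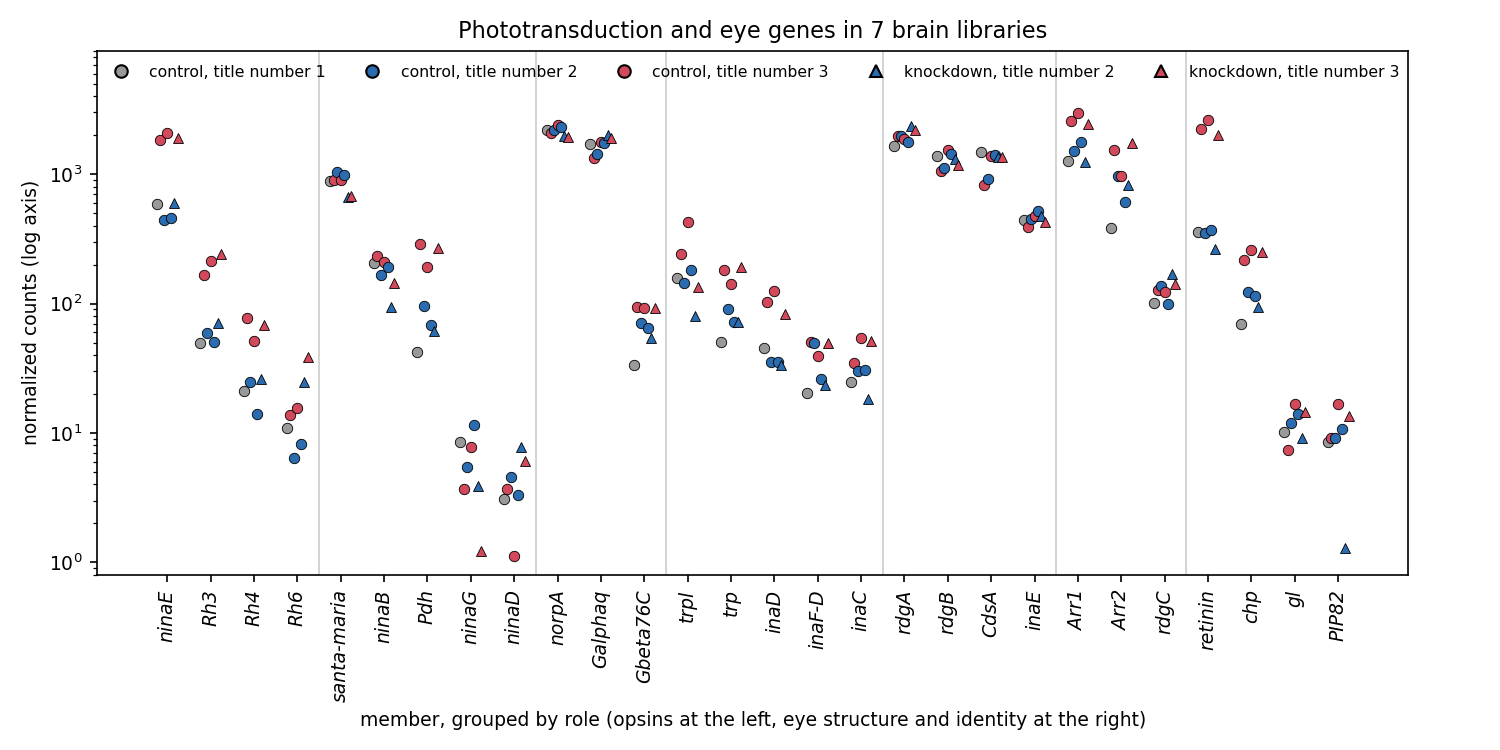
Points give the normalized counts (log axis) of each of the 28 members in each of the 7 libraries, by role, with circles for control, triangles for knockdown and colour for the title number. Number 3 libraries stand above the rest for ninaE, Rh3, Rh4, Pdh, inaD, trp, chp and retinin, while norpA, rdgB and inaE show no such split. Values of 0 do not occur among the members.

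The test of title number 3 against 2 fitted the 7287 genes whose mean reached 10 normalized counts, 25 members among them, with lane code as a block (limma, Benjamini-Hochberg adjusted p under 0.05). Of the 25 members tested, 11 were higher with number 3, against 0.535% of all genes tested, and 0 were lower, against 0.0961% of all genes (0.631% in either direction). All 11 belong to the 17 photoreceptor-and-eye members tested, and none to the 8 widely used members tested. Members and lists were chosen with earlier results of these data known, so the contrast between these subsets is a description only. The median log2 difference was 0.90 over those 17 members, -0.05 over the 8 and -0.02 over all genes tested. Number 3 exceeded number 2 within each of the 3 lane codes for 16 of the 25 members, and for 1038 of the 7287 genes. With every number 3 library above all other 4 libraries there were 11 members (Gbeta76C and inaC in place of trpl and Arr2), against 2.03% of all genes. The same 11 had every number 3 library above every number 2 library, against 2.61% of all genes.

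Without lane code as a block, ninaE and retinin alone passed, and without the filter on low values none of the 11 passed (retinin adjusted p = 0.0766, most others 0.636). With the same-numbered control libraries averaged, a fit chosen after the data were seen, 11 members passed. The knockdown and control libraries gave title differences whose own difference passed the test for 0 of the 25 members (limma, adjusted p), against 1.14% of all genes, with 3 members at an unadjusted p under 0.05.

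The opsins are the light-absorbing receptors, and 3 of the 4 measured here were higher with number 3. Values of a gene follow in a fixed order, with control replicate 2, control replicate 4 and knockdown replicate 2 for number 3, then control replicate 3, control replicate 5 and knockdown replicate 1 for number 2, and control replicate 1 last. The gene ninaE (FBgn0002940, 3R from 19886255 to 19888206 on dm6) encodes the main rhodopsin, that of the outer photoreceptors R1 to R6. Its normalized counts were 1840.4, 2072 and 1919.6 with number 3, 445, 459 and 599 with number 2, and 585 in control replicate 1. All number 3 libraries lay above every other library, with ratios to the number 2 library of their lane code of 4.13 (L5), 4.51 (L7) and 3.20 (L2). The fitted log2 difference was 1.96 ± 0.09 (SE; 3.90-fold; limma adjusted p = 1.63e-08).

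Rh3 (3R from 20081060 to 20082450), an ultraviolet opsin of the inner photoreceptor R7, held 166, 215 and 242 with number 3, 59.2, 50.2 and 70.2 with number 2, and 49.8 in control replicate 1. The groups did not overlap, and the log2 difference was 1.77 ± 0.15 (SE; 3.42-fold; limma adjusted p = 2.75e-05). Rh4, the other ultraviolet opsin of R7, ranged from 51.5 to 76.8 with number 3 and from 14.0 to 26 in the other 4 libraries. Its log2 difference was 1.59 ± 0.22 (SE; limma adjusted p = 0.00197). Rh6, the opsin of many R8 photoreceptors and of the eyelet, ranged from 13.7 to 39.0 with number 3 and from 6.37 to 24.7 with number 2, and these ranges overlapped. Within each lane code the number 3 library was the higher one for Rh6, by 2.15 (L5), 1.90 (L7) and 1.58 times (L2), and the test was not passed (log2 0.83 ± 0.33; limma adjusted p = 0.356).

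Of the genes that supply the chromophore, the pigment-cell gene was the one that was higher with number 3. Pdh (3L from 16353233 to 16354297), a retinol dehydrogenase of retinal pigment cells that recycles the chromophore, held 288, 190.2 and 270.4 with number 3, 96.5, 68.3 and 61.1 with number 2, and 42.0 in control replicate 1. The lowest number 3 library was above the highest of the others, and the log2 difference was 1.72 ± 0.15 (SE; 3.29-fold; limma adjusted p = 2.75e-05). The carotenoid oxygenase ninaB, which makes retinal from dietary carotenoids, held 231, 208 and 144 with number 3, 166, 190.1 and 94.9 with number 2, and 205 in control replicate 1. These ranges overlapped, and ninaB did not pass (log2 0.40 ± 0.12; limma adjusted p = 0.220). It passed when control replicate 4 or control replicate 5 was left out (lowest adjusted p 0.0112 over all alternatives). The scavenger receptor santa-maria, which takes up carotenoids, held 901, 906 and 678 with number 3, 1046, 994 and 664 with number 2, and 891 in control replicate 1. Its libraries split by genotype rather than by number (title log2 -0.11 ± 0.08; limma adjusted p = 0.667). The oxidoreductase gene ninaG ranged from 1.22 to 11.5 and the scavenger receptor gene ninaD from 1.12 to 7.80. Both lay under the mean of 10 and were not tested.

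In the step from rhodopsin to phospholipase C, no member passed. Galphaq, the G protein subunit that carries the signal, held 1337, 1773 and 1912 with number 3, 1437, 1751 and 1999 with number 2, and 1723 in control replicate 1. The order of its libraries followed lane code, with L5 lowest and L2 highest. The phospholipase gene norpA held 2068, 2412 and 1945 with number 3, 2199.6, 2318 and 1982 with number 2, and 2197 in control replicate 1. For both genes the groups overlapped, with title log2 differences of -0.05 ± 0.07 (Galphaq) and -0.02 ± 0.07 (norpA). Gbeta76C, the eye-specific beta subunit, held 93.3, 91.7 and 92.6 with number 3, 71.0, 64.2 and 54.6 with number 2, and 33.4 in control replicate 1. All number 3 libraries were above all others for Gbeta76C, by a log2 difference of 0.55 ± 0.17 that did not pass over all genes (limma adjusted p = 0.213).

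The channels and their signalling complex included 3 genes that were higher with number 3. The light-gated channel gene trp held 180.2, 141 and 192 with number 3, 91.0, 72.4 and 71.5 with number 2, and 50.6 in control replicate 1. These groups did not overlap, and the log2 difference was 1.11 ± 0.15 (SE; 2.17-fold; limma adjusted p = 0.00128). The second channel gene, trpl, held 239.7, 426 and 134 with number 3, 143, 182 and 80.6 with number 2, and 159 in control replicate 1. Its groups overlapped because knockdown replicate 2, of number 3, lay below both number 2 controls and control replicate 1. Within lane codes number 3 was 1.68 (L5), 2.34 (L7) and 1.66 times (L2) number 2. The log2 difference of trpl was 0.90 ± 0.13 (SE; 1.86-fold; limma adjusted p = 0.00203).

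The scaffold gene inaD, which holds the channel and its regulators together, held 103, 125 and 82.8 with number 3, 35.5, 35.4 and 33.8 with number 2, and 45.1 in control replicate 1. No library of one group reached the other, with a log2 difference of 1.53 ± 0.18 (SE; 2.88-fold; limma adjusted p = 0.000424). The eye protein kinase C gene inaC ranged from 34.8 to 53.7 with number 3 and from 18.2 to 30.5 in the other 4 libraries, without overlap, and did not pass (log2 0.81 ± 0.26; limma adjusted p = 0.242). The gene inaF-D, needed for trp function, ranged from 39.2 to 50.3 with number 3 and from 23.4 to 49.2 with number 2, and did not pass (log2 0.55 ± 0.24; limma adjusted p = 0.432). Its neighbour inaF-B on the same strand, whose gene covers the same 3' end, had nearly the same values (20.2 to 51.2), and reads of these genes cannot be told apart.

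The 4 genes of the lipid cycle, which rebuild the substrate of phospholipase C, gave title log2 differences between -0.15 and -0.01, and none passed. The diacylglycerol kinase gene rdgA held 1975, 1862 and 2205 with number 3, 1990.2, 1765 and 2342 with number 2, and 1643 in control replicate 1. The lipid transfer gene rdgB held 1053, 1545 and 1172 with number 3, 1109, 1427 and 1319 with number 2, and 1375 in control replicate 1. In both genes the groups of title numbers overlapped, and rdgB was lowest in the L5 controls. CdsA, which makes the activated lipid precursor, held 825, 1389 and 1362 with number 3, 922, 1408 and 1350.4 with number 2, and 1477 in control replicate 1. The diacylglycerol lipase gene inaE held 392, 479 and 426 with number 3, 452, 518 and 473 with number 2, and 439 in control replicate 1. CdsA was low in both L5 controls, and inaE overlapped between numbers.

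Both arrestins, which bind active rhodopsin and shut it off, were higher with number 3, and the phosphatase was not. Arr1 (2L from 18078269 to 18081307) held 2563, 2976 and 2434 with number 3, 1521, 1759 and 1241 with number 2, and 1273 in control replicate 1. The groups did not overlap, and the log2 difference was 0.83 ± 0.08 (SE; 1.77-fold; limma adjusted p = 4.32e-05). Arr2 held 1530.3, 967 and 1755 with number 3, 975, 605 and 821 with number 2, and 387 in control replicate 1. Control replicate 4 fell below control replicate 3, so these groups overlapped, while within lane codes number 3 was 1.57 (L5), 1.60 (L7) and 2.14 times (L2) number 2. The log2 difference of Arr2 was 0.81 ± 0.09 (SE; 1.75-fold; limma adjusted p = 0.000377). The rhodopsin phosphatase gene rdgC held 128, 123 and 143 with number 3, 137, 98.8 and 170.3 with number 2, and 100.3 in control replicate 1. Its groups overlapped, with a log2 difference of -0.01 ± 0.14 (limma adjusted p = 0.979).

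Among the genes of eye structure and identity, the lens gene retinin differed most between title numbers of all members. Retinin (FBgn0040074, 3L from 16331933 to 16332789), a protein of the corneal lens surface, held 2224, 2643 and 2012 with number 3, 351, 369 and 266 with number 2, and 359 in control replicate 1. Every number 3 library was far above every other, with ratios of 6.34 (L5), 7.17 (L7) and 7.55 (L2) within lane codes. The log2 difference was 2.80 ± 0.08 (SE; 6.98-fold; limma adjusted p = 3.77e-11). The photoreceptor adhesion gene chp, chaoptin, held 219, 258 and 251 with number 3, 123, 115 and 94.9 with number 2, and 70.0 in control replicate 1. These groups did not overlap, and the log2 difference was 1.13 ± 0.13 (SE; 2.18-fold; limma adjusted p = 0.000424). The transcription factor gene gl, which directs photoreceptor development, ranged from 7.32 to 16.8 with number 3 and from 9.10 to 14.0 with number 2, with overlap (log2 0.08 ± 0.39; limma adjusted p = 0.958). PIP82 ranged from 1.30 to 16.8, under the mean of 10, and was not tested.

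**Figure D3:**
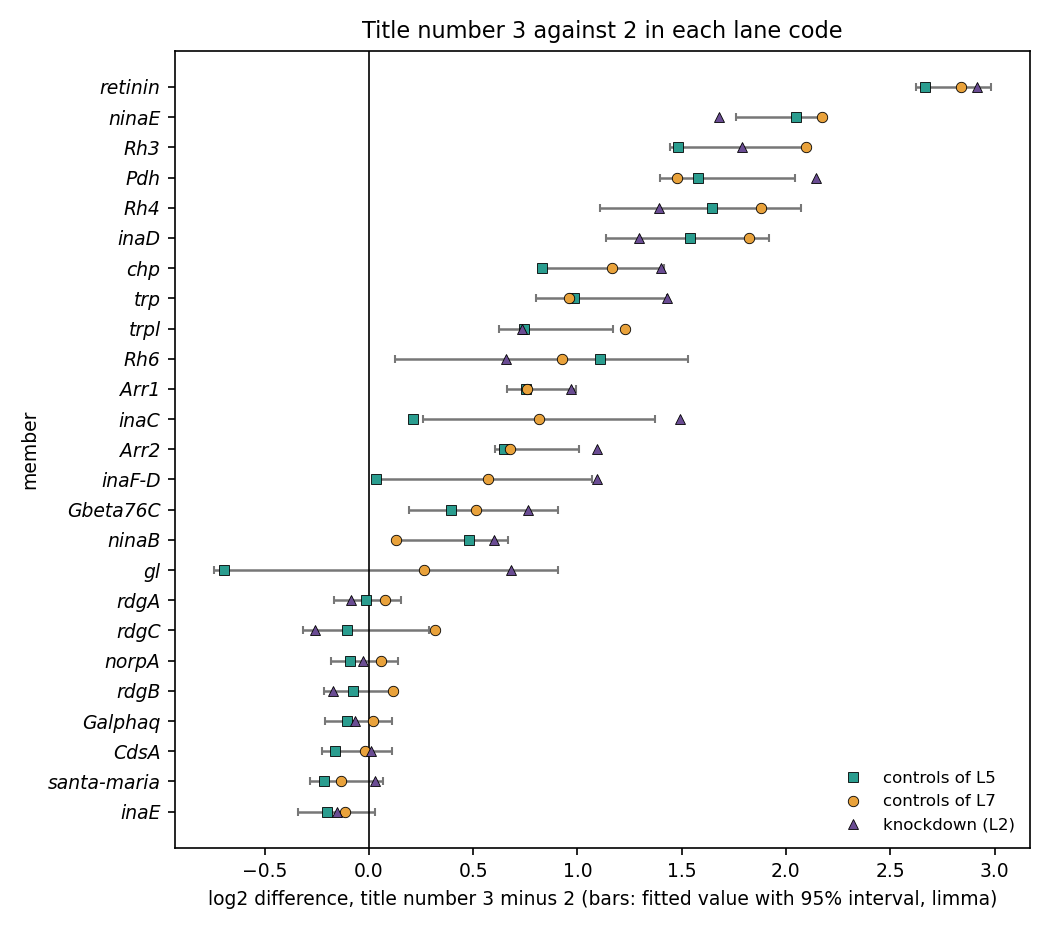
Each row is 1 of the 25 members tested, and the horizontal axis is the log2 difference of title number 3 minus 2, with symbols for the L5 controls, the L7 controls and the knockdown pair of L2, and grey bars for the fitted 95% interval (limma). All 3 symbols lie right of 0 for 16 members, from retinin down to ninaB, and close to 0 or on both sides of it for the other 9.

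**Figure D4:**
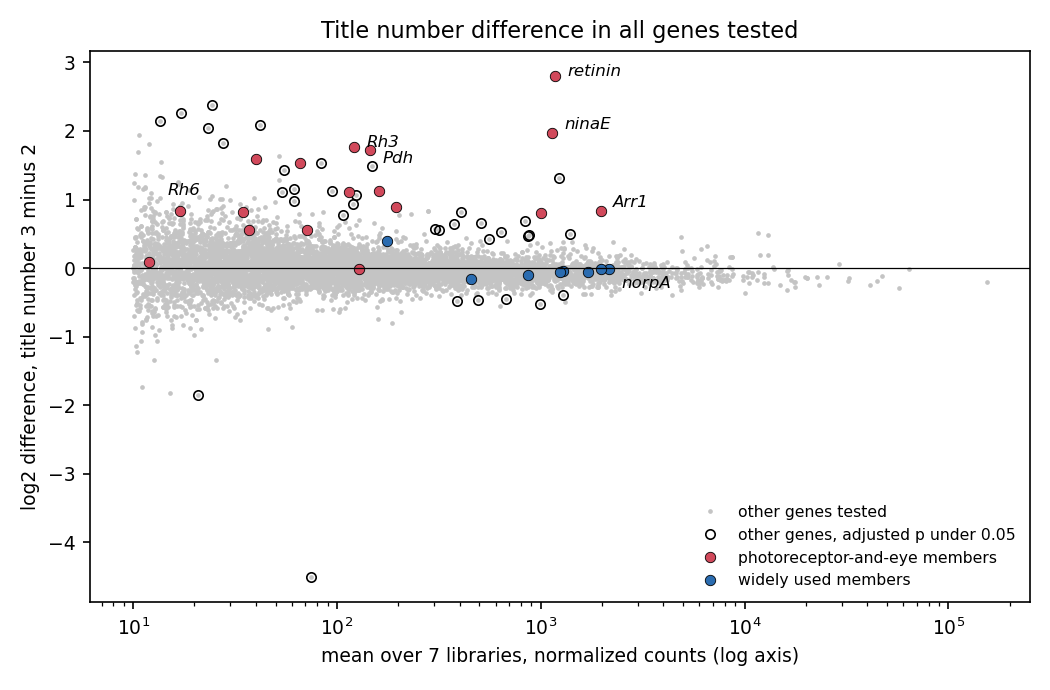
Points are the 7287 genes tested, with the mean over 7 libraries (normalized counts, log axis) against the log2 difference of title number 3 minus 2. Photoreceptor-and-eye members (red) lie between -0.01 and 2.80, with retinin the highest of all genes, widely used members (blue) between -0.15 and 0.40, and open circles mark the 35 other genes that passed.

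The size of the difference varied among the higher members. Between retinin at 6.98-fold and Arr2 at 1.75-fold, the 95% intervals of the log2 difference (2.63 to 2.98 and 0.61 to 1.01) did not overlap. Retinin and Arr2 had the largest and smallest differences among the higher members, so the choice of this pair favours such a gap. The intervals of ninaE (1.76 to 2.17) and Arr1 (0.66 to 0.99) did not overlap either, whereas that of ninaE overlapped those of Rh3 (1.45 to 2.10) and Rh4 (1.11 to 2.07). The 3' ends of Pdh, inaD and Arr2 overlap Tcs3, RpL23 and Pex7 on the other strand, and those of rdgA and PIP82 overlap lncRNA:CR43836 and Nrg, so without known strand handling their reads cannot be told apart. As counted, Tcs3 had a title log2 difference of -0.53 ± 0.35 and RpL23 one of 0.07 ± 0.08, neither past the test, and Pex7 held at most 0.915 normalized counts in any library.

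Markers of other tissues gave the following values beside the split by number. Of the 7 fat body and hemolymph markers tested (Yp1, Yp2, Yp3, fit, tobi, Lsp2 and Obp44a), 0 passed and all 7 had positive title log2 differences, from 0.19 to 0.91. Their summed level was higher with number 3 than with number 2 in the L5 controls (49901 and 32356) and the L7 controls (38546 and 25683), and lower in the knockdown pair of L2 (61178 and 65041). The difference between knockdown and control in this title difference passed for 5 of the 7, against 1.14% of all genes (Yp1, Yp2, Yp3, fit and Lsp2; limma adjusted p of 0.000181 or less). Of the lamina and optic lobe markers 0 of 7 passed (-0.39 to 0.03), of the neuronal markers 0 of 5 (-0.13 to -0.03), of the glial markers 0 of 4 (-0.04 to 0.13) and of the muscle markers 0 of 9 (-0.19 to 0.43). Hemocyte markers gave 0 of 2 (-0.37 to -0.03). Among the retinal pigment cell and lens markers 2 of 4 were higher (Pdh and Cpr72Ec), against 0.535% of all genes. In that list w (-0.03) and santa-maria (-0.11) did not pass. Pdh and santa-maria are themselves members, and Cpr72Ec and w belong to the wider list below. This count therefore repeats calls given elsewhere and adds no separate result. The part of other tissues in the split by number was not tested. Number 3 libraries had fewer reads than the number 2 library of their lane code in L5 (3918134 and 4224478) and L7 (3732675 and 5177575), but not in L2 (3308580 and 3260649).

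A wider list of 70 visual genes outside the members had 56 intact lines, and 42 were tested. With number 3, 1 of the 42 was higher, against 0.535% of all genes, and 0 were lower, against 0.0961%, with a median log2 difference of -0.02. The gene that passed was Cpr72Ec, a cuticle protein of the corneal lens, with 77.8, 52.6 and 98.7 against 23.7, 16.5 and 11.7, and 11.7 in control replicate 1. The groups did not overlap, and the log2 difference was 2.09 ± 0.28 (SE; limma adjusted p = 0.00146). The photoreceptor gene rtp (retinophilin) held 51.2, 49.2 and 49.9 with number 3, 25.5, 29.6 and 24.7 with number 2, and 20.2 in control replicate 1. Every number 3 library of rtp was above all others, and the log2 difference of 0.89 ± 0.22 did not pass (limma adjusted p = 0.118). Hdc, which makes the photoreceptor transmitter histamine and is also used by a few brain neurons, held 43.0, 51.5 and 76.7 with number 3 and 60.1, 43.6 and 62.4 with number 2, with overlap (log2 0.02 ± 0.20; limma adjusted p = 0.980). The pigment transporter gene w had a title log2 difference of -0.03 ± 0.14, and the transcription factor gene sens and the pigment gene cn were at 0 in all libraries.

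The 10 genes outside the members whose levels over the 7 libraries were most like the mean of the 12 photoreceptor-and-eye members with a mean of at least 50 were CG3597, CG15784, pio, Nplp3, sxe2, Cpn, Npc2h, CG9410, EbpIII and CG3246. They were taken from 1329 genes with such a mean and a highest value at least 2 times the lowest, with Pearson's r on the log2 scale from 0.85 to 0.92 over 7 libraries that share lanes and title numbers. Cpn, calphotin, a calcium-binding protein of photoreceptors, held 188, 337 and 186 with number 3, 71.9, 131 and 55.9 with number 2, and 64.6 in control replicate 1. Nplp3, a neuropeptide-like precursor, held 1976, 1898 and 1723 with number 3, 981, 996 and 433 with number 2, and 583 in control replicate 1. Within lane codes number 3 of Nplp3 was 2.01 (L5), 1.91 (L7) and 3.98 times (L2) number 2. Its title difference in knockdown minus that in controls was 1.02 on the log2 scale. For Cpn and Nplp3 alike, the lowest number 3 library was above the highest of the other 4. These genes were chosen for likeness, over the same libraries, to members that split by number, so the choice itself favours such a separation.

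Between knockdown and control brains, the visual genes showed few differences beyond the spread between libraries. Of the 25 members tested, 0 were higher, against 3.47% of all genes, and 1 was lower, against 2.63% of all genes (6.11% in either direction; limma, adjusted p under 0.05). The median log2 difference was 0.09 over the members and -0.02 over all genes tested. Rh6, Galphaq, rdgA and rdgC had both knockdown libraries above every control, which is 4 of 25 members against 16.6% of all genes. The genes ninaB, santa-maria, norpA and trpl had both below every control, 4 of 25 against 15.9% of all genes. Both shares are close to those of all genes.

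The gene that fell was santa-maria (2L from 7445355 to 7451244), the carotenoid receptor that in flies acts in neurons and glia outside the retina. In control replicates 1 to 5 it held 891, 901, 1046, 906 and 994, a mean of 947 ± 68.8 (SD, n = 5), and in knockdown replicates 1 and 2 it held 664 and 678, a mean of 671 ± 10.1 (SD, n = 2). Both knockdown libraries were below every control, and the log2 difference was -0.49 ± 0.12 (SE; 1.41-fold; limma adjusted p = 0.0471). The call was lost without control replicate 1, 3, 4 or 5 and without either knockdown replicate. It was also lost with title number (adjusted p = 0.125) or source name number (0.364) as a block, with quantile normalization (0.0620) and with voom (0.0551). Over all alternatives limma's adjusted p ranged from 0.00389 to 0.364. Its 3' end overlaps the gene CG5973 on the other strand, and whether counting used strand is not known here, so reads of the 2 genes cannot be told apart.

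The opsin gene Rh6 (3R from 15483158 to 15484699) held 10.9, 13.7, 6.37, 15.7 and 8.23 in control replicates 1 to 5, against 24.7 and 39.0 with knockdown. Both knockdown libraries were above every control, also at the same title number, with 3.38 times the mean of the number 2 controls and 2.65 times that of the number 3 controls. The log2 difference of 1.48 ± 0.39 (SE) missed the threshold (limma adjusted p = 0.0559, 0.0188 to 0.328 over the alternatives, of which 6 of 17 passed). The oxygenase gene ninaB held 205, 231, 166, 208 and 190.1 in control libraries against 94.9 and 144 with knockdown, all below the controls. Its log2 difference of -0.76 ± 0.19 (SE) also missed the threshold (limma adjusted p = 0.0522, 0.00769 to 0.375 over the alternatives). Its 3' end overlaps Adgf-D on the other strand, which held 557 to 871 in control libraries against 495 and 697 with knockdown.

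Each further member with separated groups did not pass. The channel gene trpl held 159, 239.7, 143, 426 and 182 in control libraries against 80.6 and 134 with knockdown, all lower, by a log2 difference of -1.02 ± 0.39 (limma adjusted p = 0.147). At the same title number, trpl in knockdown was 0.496 (number 2) and 0.402 times (number 3) the control mean. The log2 differences were 0.42 ± 0.18 for rdgC (limma adjusted p = 0.188), 0.30 ± 0.13 for rdgA (0.165), 0.29 ± 0.15 for Galphaq (0.250) and -0.19 ± 0.12 for norpA (0.350).

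For the members that split by title number, the controls spread widely, and the genotype fit, which left title number out, had little precision. For ninaE the control mean was 1080.4 ± 806 (SD, n = 5) and the knockdown mean 1259 ± 934 (SD, n = 2), a log2 difference of 0.33 with a 95% interval from -1.25 to 1.91 (limma adjusted p = 0.810). For retinin the means were 1189 ± 1146 and 1139 ± 1234, a log2 difference of -0.07 with an interval from -2.37 to 2.22 (limma adjusted p = 0.974). At the same title number, ninaE in knockdown was 1.32 (number 2) and 0.981 times (number 3) the control mean, and retinin 0.741 and 0.827 times. With title number as a block, the log2 difference was 0.19 for ninaE (limma adjusted p = 0.550) and -0.35 for retinin (limma adjusted p = 0.245).

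**Figure D5:**
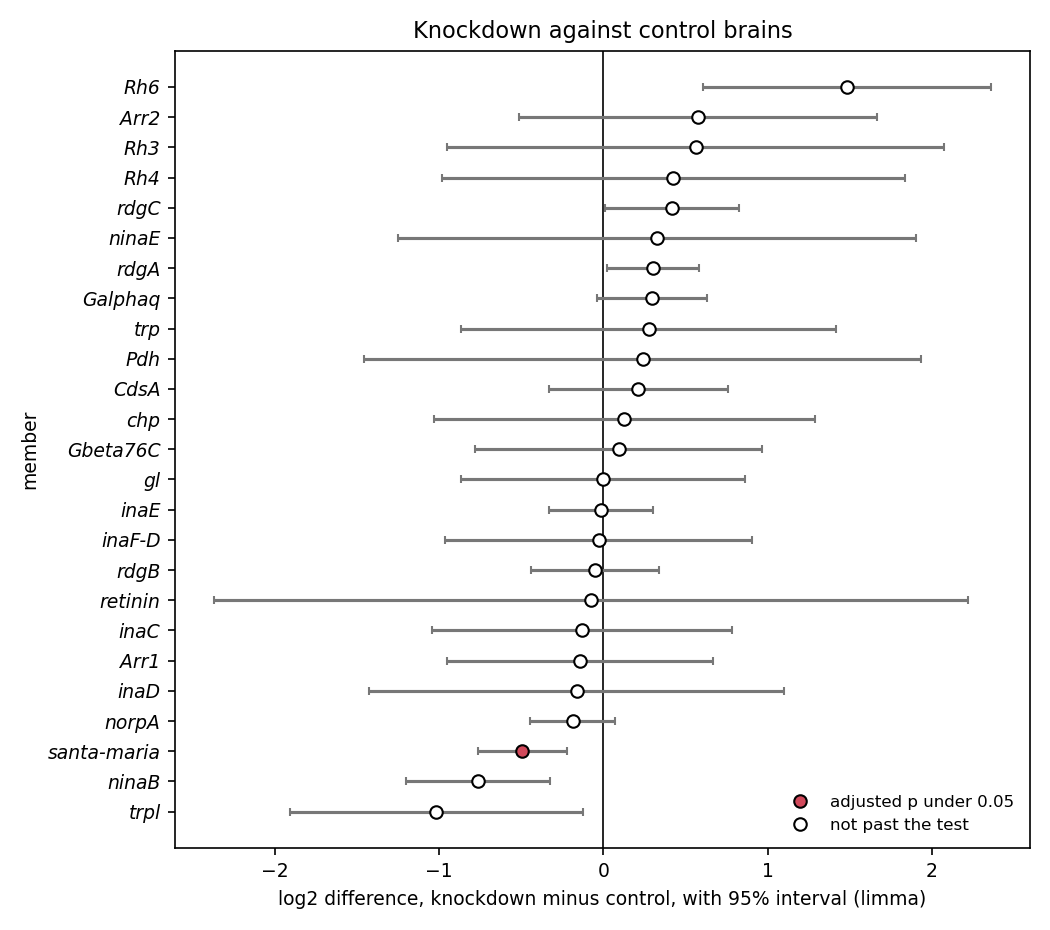
Each row is 1 of the 25 members tested, and the point is the log2 difference of knockdown minus control with its 95% interval (limma, 2 against 5 libraries). The filled point, santa-maria at -0.49, passed the adjusted p of 0.05, Rh6 stands highest at 1.48 and trpl lowest at -1.02, and the widest interval is that of retinin.

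In the wider list of visual genes, 3 of 42 were higher in knockdown brains, against 3.47% of all genes, and 2 were lower, against 2.63%, with a median log2 difference of 0.11. Rip11, which carries rhodopsin to the light-sensing membrane, held 319 to 349 in control libraries against 647 and 558 with knockdown, without overlap (log2 0.85 ± 0.12; limma adjusted p = 0.00907). The homeobox gene dve, a repressor of rhodopsin genes, held 64.0 to 104 in control libraries against 178 and 195 with knockdown (log2 1.16 ± 0.20; limma adjusted p = 0.0168). The transporter gene w held 78.3 to 94.1 against 157 and 182 (log2 0.97 ± 0.15; limma adjusted p = 0.0109), and all 3 genes were above every control. The phospholipase D gene Pld held 38.9 to 57.6 in control libraries against 22.1 and 23.1 with knockdown (log2 -1.03 ± 0.22; limma adjusted p = 0.0343). Pis, which makes phosphatidylinositol, held 2671 to 3964 in control libraries against 1999 and 1904 with knockdown (log2 -0.78 ± 0.18; limma adjusted p = 0.0384).

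Other markers moved with genotype beside these values, where 3.47% of all genes were higher and 2.63% lower. Of the fat body and hemolymph markers 3 of 7 passed as higher in knockdown brains (Yp3, fit and tobi). All 7 had both knockdown libraries above every control, against 16.6% of all genes, with log2 differences from 0.42 to 2.74. The sum of the 7 was 25683 to 49901 in control libraries against 65041 and 61178 with knockdown. Of the muscle markers 2 of 9 fell (TpnC41C and Mlp60A), with sums of 2386 to 3541 in control libraries against 2340 and 2642 with knockdown. Of the neuronal markers 1 of 5 rose (nSyb), with sums of 23115 to 25784 against 33766 and 31148. The gap in these sums is mostly that of nSyb, at 4075 to 5326 in control libraries against 12461 and 11192 with knockdown. The log2 differences of elav, brp, Syt1 and Syx1A lay between -0.01 and 0.21, and none passed. Of the glial markers 0 of 4 and of the lamina and optic lobe markers 0 of 7 passed. The part of these tissues in the differences by genotype was not tested.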

How the data were processed

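The authors deposited normalized counts per gene, a signal whose making is not given in the sources used here. RNA came from dissected brains and libraries were made by CEL-seq2 adapted to bulk RNA, per the labels' protocols. Per the submitters' processing notes, STAR and dm6 were used. The counting tool, the annotation and the strand setting are each not given in the sources used here. On intact lines 100% of deposited values were whole numbers divided by 1 factor per library (within 0.001), which gives the depth, and counting error limits genes near the minimum. Not used were 2139 lines holding part of another table, 1 line with a damaged name and 402 columns without a sample. Gene positions are those of Ensembl's BDGP6 annotation, the assembly of dm6.

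Values were log2-transformed with a pseudocount of 1, and genes with a mean of at least 10 were tested with limma 3.58.1 in R 4.3.3 (mean-variance trend, two-sided, Benjamini-Hochberg over 7287 genes). Genotype had no covariate, and title number had lane code as a block. The fits were run on simulated counts drawn independently for each library, without lane, date or shared RNA. That simulation does not cover these features of the design. A fold change is taken from log2(value + 1), so it is too small for low genes. All members are named, those with a mean of at least 50 with all 7 values. In the wider list, genes passing either test are named (Hdc, rtp and those at 0 were added after their values were seen), and outside it the 10 most like the members. Members, lists and tests were chosen with earlier results of these data known. Other settings, replicate blocks and libraries left out were tried as alternatives.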

Additional observations from a re-analysis of the deposited data

Results flagged for a closer look

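In control replicate 4, PIP82 stood at 16.8 normalized counts, apart from the other 4 control libraries at 8.56 to 10.7. It was the 1 member of 28 in which a control library was far from the rest by Dixon's test, and chance gives such a flag in about 1 of 20 groups.

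In 9 tissue markers the difference between title numbers 3 and 2 was itself different in knockdown and control libraries (limma, adjusted p under 0.05), in a fit that compares 1 knockdown pair with 2 control pairs. The same held for 1.14% of all genes tested. The lists these markers come from had 7 fat body and hemolymph markers and 9 muscle markers tested. On the log2 scale, the title difference in knockdown minus that in controls was -0.98 for Yp1, -1.05 for Yp2, -0.92 for Yp3, -2.09 for fit and -2.77 for Lsp2, markers of fat body and hemolymph. It was -2.10 for Act88F, 1.10 for Mlc2, 1.42 for up and 1.28 for wupA, markers of muscle.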

How the results depend on the processing

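Title number 3 against 2 gave 11 members higher, 0 without the filter on low values, 2 with no replicate block in place of the lane code, 11 to 12 with each library left out and 10 to 11 under the other settings, with 0 lower throughout. Knockdown gave 0 members higher, with 3 against L5 controls only, 3 against L7 controls only, and 1 each with a pseudocount of 5, same-titled controls averaged or voom on the recovered whole numbers. It gave 1 lower, with 3 against L7 controls only, 2 with a mean of at least 50, 2 with same-titled controls averaged, and 0 with quantile normalization, voom, a replicate block by title number or by source name number. With each library left out these counts ran from 0 to 1 both ways, and the knockdown log2 difference from -0.51 to 1.17 for ninaE and from -1.53 to 1.38 for retinin. It turned sign to 0.056 (L7 only) and 0.11 (averaged) for retinin and to -0.071 (L7 only) for CdsA. The causes were not tested. The replicate numbers did not show pairing in every case: title differences correlated over 5082 genes by 0.42 (L5 and L7), 0.18 (L5 and L2) and -0.03 (L7 and L2). A paired fit by title number gave 33 genes higher and 18 lower in knockdown of all genes, against 253 and 192, and one by source name number 83 and 37. All-gene counts were 1073 and 1337 with L7 controls only, 651 and 433 with L5 controls only and 1 and 0 without either knockdown library. The voom fits, and averaged controls for title number, were added after the data were seen. Count models (edgeR, DESeq2) were not run. Depth limits the members under 50 counts.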

Other observations

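Of the 46 genes that passed the test of title number 3 against 2 (limma, adjusted p under 0.05), 35 were not members. With number 3, 28 of them were higher and 7 lower. The antibacterial peptide genes AttB and DptB had log2 differences of 2.14 ± 0.44 and 2.27 ± 0.40 (SE), with AttB at 27.4, 12.3 and 30.5 normalized counts with number 3 and 2.73, 1.65 and 13.0 with number 2. DptB held 13.7, 23.5 and 37.8 with number 3, 0.910, 3.29 and 14.3 with number 2, and 27.2 in control replicate 1. The groups overlapped for both peptide genes. Cyp313a1, a cytochrome P450 gene, was 5.20-fold higher, and Cpn was 2.80-fold higher. In the other direction Cyp4g1, a cytochrome P450 that makes cuticular hydrocarbons in oenocytes, held 11.0, 1.12 and 8.53 with number 3 and 122, 271 and 84.5 with number 2. All 3 number 3 libraries were below all number 2 libraries, by a log2 difference of -4.51 ± 0.52 (SE; limma adjusted p = 0.000377), and control replicate 1 stood at 24.9. Within lane codes number 3 of Cyp4g1 was 0.0900 (L5), 0.00413 (L7) and 0.101 times (L2) number 2. Its title difference in knockdown minus that in controls was 2.02 on the log2 scale.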
